A study of Mus musculus with 4 samples.

Results

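Haematopoietic progenitors and endothelial cells from the same differentiation cultures were compared gene by gene, with the genes grouped by function. The endothelial side was population 1, sorted as Runx1-/VE-cadherin+/Flk1+, and the blood side was population 4, sorted as Runx1+/VE-cadherin-/CD41+. These are 2 of the 4 arrays of the expression series, taken by their labels, and the other two, population 2 (Runx1+/VE-cadherin+/CD41-) and population 3 (Runx1+/VE-cadherin+/CD41+), are used below to place a difference between the ends. Every population carries the heterozygous Runx1(Venus/+) genotype of one ES cell line made from CCE ES cells, in which the fluorescent Venus gene lies under the proximal Runx1 promoter P2. All cells were kept on OP9 stroma for 6 days without further treatment and were separated by flow cytometry, so that each group is a sorted mixture from 1 line that carries a single targeted Runx1 allele. RNA of each population was hybridised to 1 Affymetrix mouse genome array.

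During embryonic development the earliest blood cells arise from mesoderm and from a specialised endothelium, the haemogenic endothelium, whose flat cells lose their junctions, round up and detach. Runx1 is the transcription factor needed for this transition. Early embryonic blood consists largely of primitive erythroid cells, with megakaryocytes and macrophages beside them, while CD41 (Itga2b) marks early progenitors before it becomes a platelet integrin, and endothelium is recognised by VE-cadherin (Cdh5), VEGF receptors and the matrix that it lays down.

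Signals were probe set intensities on a linear scale, and a gene was represented by whichever of its probe sets was brightest on average (log2). Of 18194 genes, 9276 had a signal above 100 in population 1 or 4 and were counted as measured, 7283 of them above 100 in both. Signals under 100 were raised to 100 before a ratio was formed, and a fold that rests on a raised signal can only understate the difference and is written as at least. Where 2 signals of a gene are given, the former is that of population 1 and the latter that of population 4, followed by the fold with its direction in population 4, and 4 signals are those of populations 1 to 4 in order. With 1 array a side there is no replicate check, no error and no test, and the number of arrays limits the precision. RNA quality readings were close, with a 3′ over 5′ signal of 0.884 and 0.901 for Gapdh and 1.33 and 1.39 for beta-actin in populations 1 and 4. The 18 hybridisation control probe sets lay 0.33 (log2) lower in population 4 and the 24 poly-A controls 0.07 higher, and the part of scaling in the results was not tested beyond the alternatives below. A lower signal can come from fewer cells of a type or from less RNA per cell, which cannot be told apart in sorted bulk samples.

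The midpoint (median) of the log2 ratios, population 4 over population 1, of measured genes lay at 0.39, and at 0.12 after centring each array on its median. At least 2-fold higher in population 4 were 2123 genes (22.9%), and 1223 (13.2%) were at least 2-fold lower. A 4-fold difference was reached by 424 genes (4.57%) in the upward and by 537 (5.79%) in the downward direction. The very large differences were mostly downward, with 83 genes lower by 16-fold or more and 23 higher by as much. After centring, the 2-fold limit was passed by 1375 genes upwards and 1499 downwards, so that the balance at 2-fold turns with the scaling, and counts after centring are given below for lists where they differ by more than 1.5 times. Just inside the 4-fold limit lay Rrp12, with signals of 147 and 588 (4.00-fold higher), and just outside it Rfc3, with signals of 203 and 812 (4.00-fold higher). On the low side Gramd1a stood just inside with signals of 1442 and 360.1 (4.00-fold lower), and Serpinf1 just outside with signals of 1482 and 371 (4.00-fold lower).

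**Figure D1:**
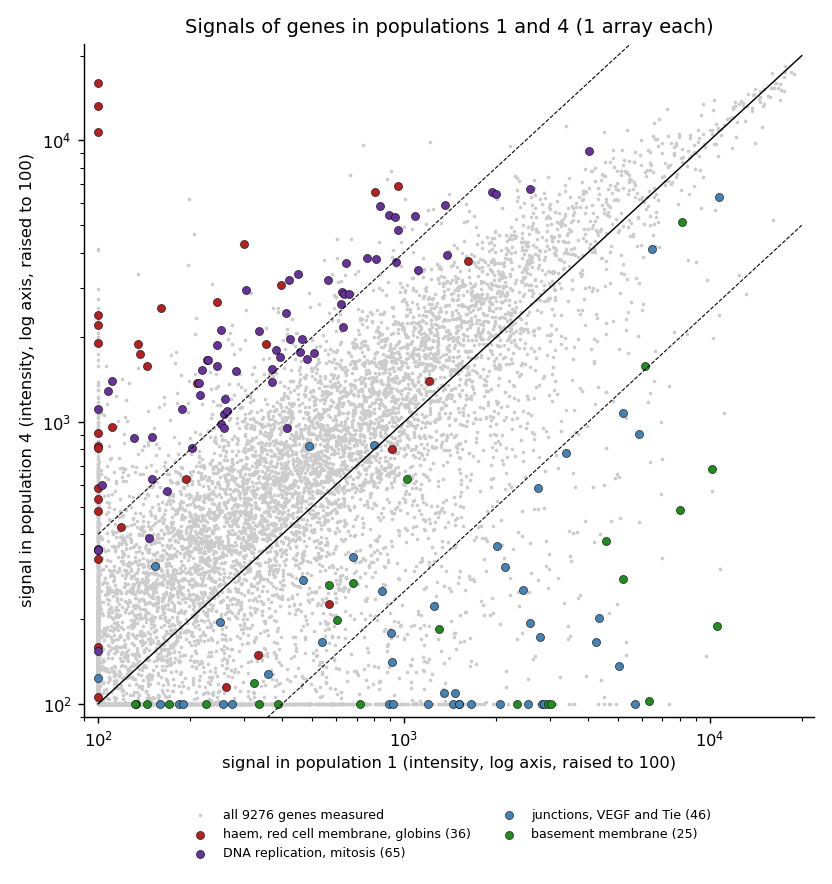
Signal of each measured gene in population 1 (x axis) and population 4 (y axis), intensity on log axes and raised to 100 where lower, with 1 array each. The solid line marks equal signals and the dashed lines 4-fold differences. Most haem, red cell membrane and globin genes and the cell division genes lie above the diagonal, and most junction, VEGF and basement membrane genes lie below it, many on the floor of 100 in population 4.

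The intermediate populations lay nearer to the endothelial end. Of the 424 genes at least 4-fold higher in population 4, 80.7% had a population 2 value nearer to population 1 on the log2 scale, and 70.3% had a population 3 value nearer to it. Among the 537 genes at least 4-fold lower, these shares were 81.6% and 88.6%. Thus for most of the genes set apart between the ends, the larger part of the difference lay between populations 3 and 4, on the array of the cells that lacked VE-cadherin.

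Both labels were set against defining markers. These include genes of the sort itself, namely Cdh5, Kdr (Flk1), Runx1 and Itga2b. The direction of these genes was largely set by the gates, so they are no independent check of the labels. They also count in the junction, VEGF, blood transcription factor, megakaryocyte and integrin lists below. Of 12 endothelial markers, all above 100 in population 1, 11 were at least 2-fold lower in population 4 and 5 were below 100 there. The sort marker Cdh5 had signals of 5683 and 40.9 (at least 56.8-fold lower), although its other measured probe set was 0.63 (log2) lower, and the adhesion receptor Pecam1 had signals of 2139 and 305 (7.02-fold lower). The vessel lumen gene Egfl7 had signals of 1858 and 1035 (within 2-fold), with -1.88 to -1.15 (log2) by its 3 other measured probe sets, and the VEGF receptor Kdr kept 906 in population 4 from 5866. Endothelial transcripts were thus low but not all absent in population 4. Among 12 blood markers, 9 were at least 2-fold higher in population 4, and in population 1 all but Itga2b and Kit lay below 100. Itga2b itself, part of the gate, had 667, 1135, 2418 and 1609.5 in populations 1 to 4, and its transcript stood 2.41-fold higher at the blood end. The receptor gene Kit had 1918, 2032, 2093 and 703 in populations 1 to 4 and was the marker with a lower signal in population 4, while leukosialin (Spn) and Vav1 were below 100 in both ends.

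Most markers of other cells were not above 100 at either end or differed by less than 2-fold. For 26 stromal and mesenchymal genes, the kind of the OP9 layer, 16 were measured, 7 were at least 2-fold lower and 0 higher, and the summed signal of measured members was 8125 in population 1 and 3670.3 in population 4. The collagen gene Col1a2 had signals of 1988 and 843 (2.36-fold lower), while Pdgfra, Thy1, Dcn and Lum were not above 100 in either. None of 11 early mesoderm genes on the array, none of 11 mast cell genes and 1 of 17 lymphoid genes was measured. Of 20 heart and muscle genes 6 were measured, 1 lower and 1 higher, and the slow troponin I gene Tnni1 stood out with 80.2, 153, 286 and 1368 in populations 1 to 4. Among genes of undifferentiated ES cells 3 of 12 on the array were measured and 2 of them lower, such as Dppa4 with signals of 888 and 318 (2.79-fold lower). Of 17 endoderm, liver and neural genes 4 were measured and 3 of them lower, among them Sox17, a factor that endothelium also uses. The part of these cells in the differences below was not tested.

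In all, 63 lists with 1614 symbols were examined, of which 1515 were on the array under a single symbol and 1181 were measured. Of those, a 2-fold difference was reached by 300 upwards and by 329 downwards. The counts of each list below are to be read beside all measured genes, of which 22.9% were higher and 13.2% lower. A count near these shares says nothing particular about its list. Counts after centring are to be read beside the 1375 higher and 1499 lower of the 9284 genes then measured.

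**Figure D2:**
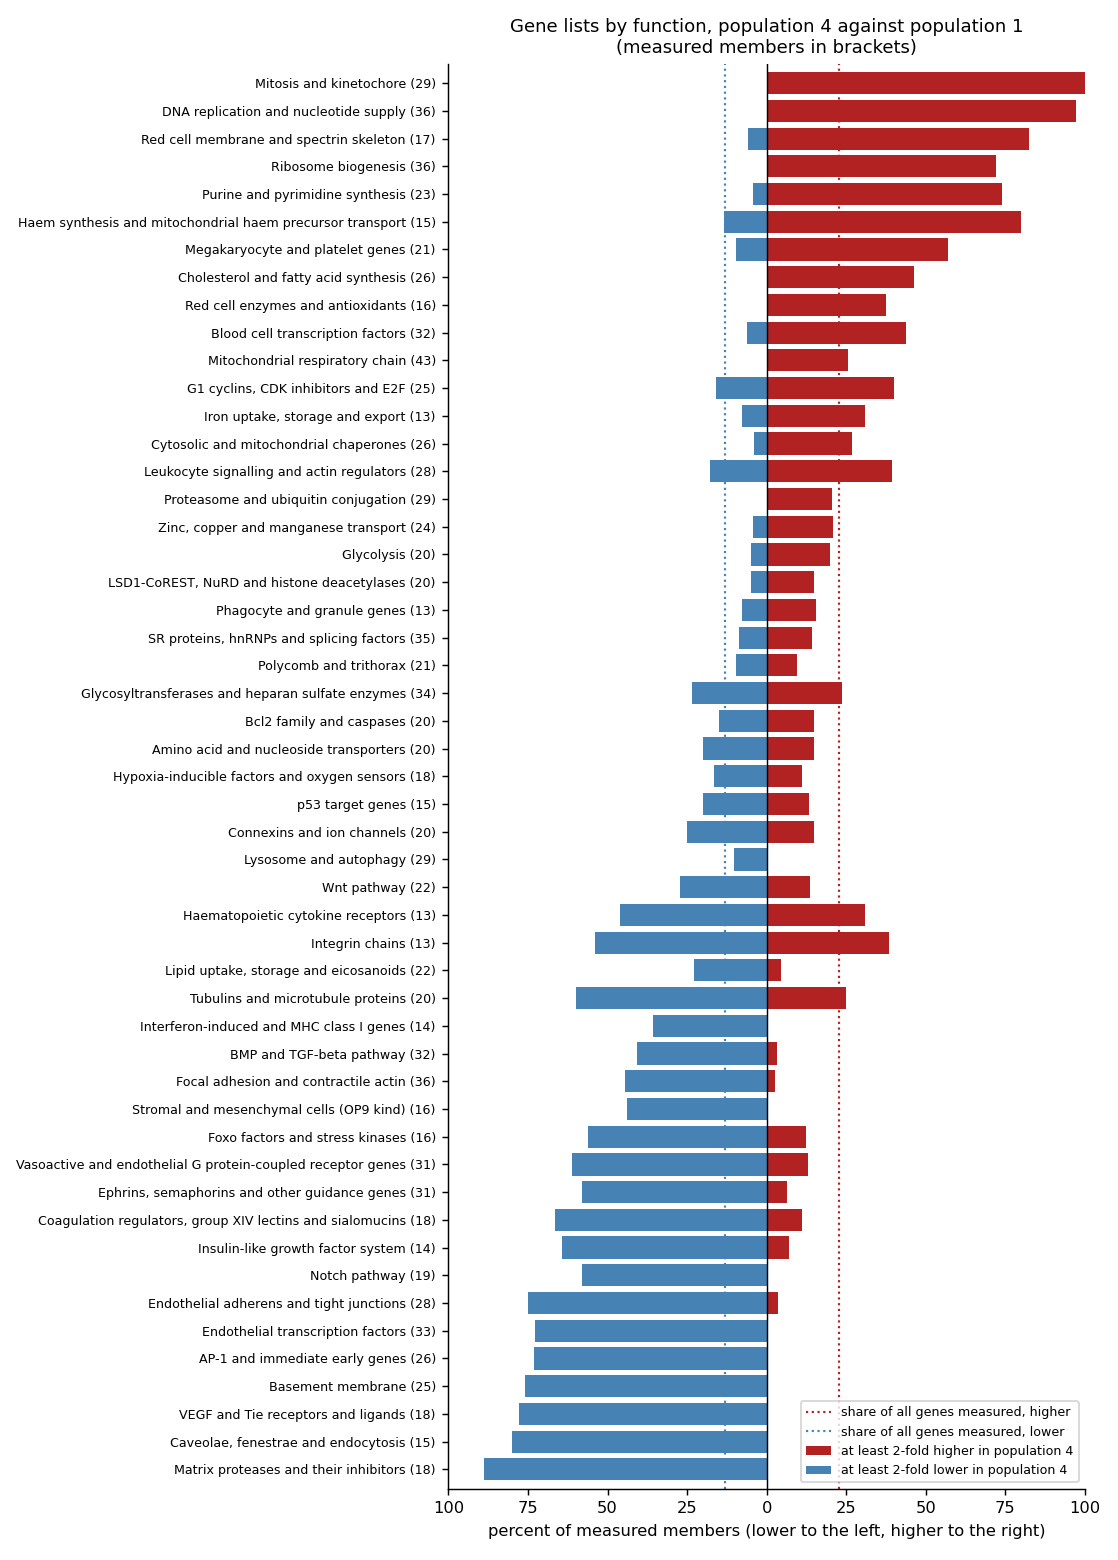
Percent of the measured members of each list with a signal at least 2-fold higher (right, red) or lower (left, blue) in population 4 than in population 1, for lists of 13 or more measured genes, with the share of all measured genes dotted (22.9% and 13.2%). Mitosis and DNA replication stand at the top with 29 of 29 and 35 of 36 genes higher, and matrix proteases at the foot with 16 of 18 lower.

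The pathway of haem, the iron-holding group of haemoglobin, was higher in population 4 at nearly every step. Of 15 measured genes 12 were at least 2-fold higher, against 22.9% of all genes, with a median log2 ratio of 3.04. Alas2, the erythroid enzyme of the first step, had signals of 13.1 and 2396 (at least 24.0-fold higher). The cytosolic enzyme of the next step, Alad, had signals of 244 and 2673 (10.9-fold higher), and the later enzymes Urod and Cpox had signals of 805 and 6566 (8.16-fold higher) and signals of 135 and 1888 (14.0-fold higher). Ferrochelatase (Fech), which inserts the iron, had signals of 397 and 3068 (7.74-fold higher), and the mitochondrial transporter Abcb10 had signals of 144 and 1583. Enzymes from both ends of the path and its transporters thus stood apart together. Uros had signals of 160.0 and 2551 (15.9-fold higher) by its brightest probe set, while its other probe set differed by 0.32 (log2). The 2 genes lower in population 4 were Alas1, the enzyme form of other tissues, with signals of 567 and 226 (2.51-fold lower), and Hmox1, which breaks haem down, with signals of 261 and 115 (2.27-fold lower). Its relative Hmox2 had signals of 914 and 801 (within 2-fold). The 12 higher genes include the biliverdin reductase Blvrb, which is not a synthesis enzyme, with signals of 301 and 4285 (14.2-fold higher).

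Of 13 measured iron genes 4 were at least 2-fold higher (30.8%, against 22.9% of all genes), 8 were within 2-fold and 1 was lower. Mitoferrin (Slc25a37), which carries iron into mitochondria, had 135, 185, 216 and 3357 in populations 1 to 4 and stood 24.9-fold higher at the blood end. The ferritin receptor Ncoa4 had signals of 604 and 3822 (6.33-fold higher) and the iron-sulfur protein Glrx5 signals of 2219 and 9528 (4.29-fold higher), whereas ferroportin (Slc40a1), the exporter, had signals of 276 and 95.4 (at least 2.76-fold lower). The ferritin heavy chain Fth1 was high in both, with signals of 7240.0 and 12907 (within 2-fold).

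The spectrin skeleton and membrane proteins of the red cell had 14 of 17 measured genes higher and 1 lower, with a median log2 ratio of 2.42. Most started from signals under 100, as 13 members on the array had such a signal in population 1. Band 3 (Slc4a1), the anion exchanger, had 11.1, 9.05, 28.6 and 2204 in populations 1 to 4. The skeleton protein tropomodulin (Tmod1) had signals of 83.2 and 1908 (at least 19.1-fold higher) and the blood group and Rh-associated genes Kel and Rhag had signals of 17.9 and 584 (at least 5.84-fold higher) and signals of 1.05 and 482 (at least 4.82-fold higher). Protein 4.2 (Epb42) had signals of 3.98 and 917 (at least 9.17-fold higher), with 0.41 (log2) by its other probe set. Against these, the membrane scaffold gene Mpp1 had signals of 333 and 149 (2.24-fold lower), and alpha adducin (Add1), used by many cells, had signals of 1207 and 1401 (within 2-fold). The epsilon-y, zeta and beta-h1 globin genes, 3 of the 4 measured globins, had 13284, 10684 and 15940.0 in population 4, while the adult gene Hbb-b2 had signals of 10.7 and 159 (at least 1.59-fold higher). Of the red cell enzymes, carbonic anhydrase 2 (Car2) had 1221, 4722, 5511 and 9870.3 in populations 1 to 4, so that it was already 4722 in population 2, and the erythroid ubiquitin ligase Trim10 had signals of 30.8 and 662 (at least 6.62-fold higher).

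Promoters of blood genes are shown for the GATA motif. The erythroid factor that binds it is encoded by Gata1, with 15.1, 26.9, 50.7 and 2065 in populations 1 to 4. The 6 genes were picked because they hold a match. They had the largest ratios among such genes of the haem, red cell membrane, megakaryocyte and blood transcription factor lists. Only genes with 1 promoter were used, and 1 chromosome was left out. Each window holds 30 bases of the RefSeq promoter, GRCm38.p6, read on the strand of the gene, with the match to AGATAA or TGATAA on either strand in capitals.
Alas2, chrX:150547319-150547348, + strand: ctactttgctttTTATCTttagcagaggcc
Klf1, chr8:84901890-84901919, + strand: tttgcctgggtcTTATCAgggaagacagcc
Cpox, chr16:58670200-58670229, + strand: cagggtgcagtcTTATCTgctctttccggg
Epb42, chr2:121037086-121037115, - strand: gtctctatttccTTATCTcgttcaaacaga
Ermap, chr4:119190045-119190074, - strand: tgaacgctcgctTTATCAggggtgggcaga
Gfi1b, chr2:28622085-28622114, - strand: tctgtgaagtttTGATAAgcaaatgtggct
In promoters of 250 bases before to 50 bases after the start, a match was present in 6 of 12 red cell membrane genes with 1 promoter in the table and in 2 of 8 haem genes. Of genes at least 4-fold higher in population 4, 13.4% of 276 had one, against 9.80% of 296 genes at least 4-fold lower, 9.09% of 6030 measured genes and 19.4% of 22862 promoters of any gene. Matches to CACCC, the core of Kruppel-like factor sites, were found in 66.7%, 69.6% and 61.1% of the first 3 sets and in 56.0% of all promoters. The Runx letters TGTGGT or TGCGGT had 26.8%, 19.6% and 20.6%, with 22.5% of all promoters, and the ETS letters ACCGGAA or CAGGAA had 30.1%, 28.7% and 31.2%, with 33.1%. These are counts of letters on either strand and not sites.

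Of 21 measured megakaryocyte and platelet genes, 12 were at least 2-fold higher and 2 lower, with a median log2 ratio of 1.27. Pleckstrin (Plek), a platelet kinase substrate, had 12.3, 55.0, 1826 and 4099 in populations 1 to 4 and thus was already high in population 3, while beta-1 tubulin (Tubb1), which forms the platelet rim, had 6.36, 3.62, 52.0 and 1742. The adhesion receptor subunit Gp1bb had 516 in population 4 (at least 5.16-fold higher), and platelet factor 4 (Pf4) had signals of 49.9 and 343 (at least 3.43-fold higher). Integrin beta 3 (Itgb3), the partner of CD41, had signals of 9.35 and 1354 (at least 13.5-fold higher), though its other probe set gave 0.14 (log2). Von Willebrand factor (Vwf) and the lectin receptor Clec1b, both also made by endothelium, had signals of 1566 and 166 (9.40-fold lower) and signals of 2514 and 951 (2.64-fold lower). The thrombin receptor F2r had signals of 11855 and 9419 (within 2-fold).

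Receptors for blood cytokines went both ways, with 4 of 13 measured genes higher and 6 lower, against 22.9% and 13.2% of all genes. The erythropoietin receptor Epor had 81.1, 59.4, 122 and 1092 in populations 1 to 4, and the shared beta chain of the interleukin 3 family receptors, Csf2rb, had 208, 59.1, 339.8 and 2050.3. Both were highest in population 4. The chemokine receptor Cxcr4 had signals of 1732 and 10.3 (at least 17.3-fold lower), the growth hormone receptor Ghr signals of 890.1 and 135 (6.59-fold lower) and the leukaemia inhibitory factor receptor Lifr signals of 1683 and 277 (6.07-fold lower), all lower in population 4. The macrophage receptor Csf1r had signals of 43.5 and 388 (at least 3.88-fold higher), with 0.14 (log2) by its other probe set.

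Signalling genes shared by leukocytes had 11 of 28 measured genes higher and 5 lower. Tyrobp, an adaptor of myeloid receptors, had 16.5, 31.2, 392 and 678 in populations 1 to 4 and the phosphatase Ptpn6 69.3, 101, 649 and 687, both near their population 4 value in population 3. Rasgrp3, an activator of Ras and Rap, had signals of 4415 and 121 (36.5-fold lower), and L-plastin (Lcp1), an actin bundler named for leukocytes, had signals of 1391 and 440.3 (3.16-fold lower), also lower in population 4. The kinase subunit Pik3cd had signals of 6097 and 6053 (within 2-fold). Among phagocyte genes, 13 of 29 on the array were measured, with 2 higher and 1 lower (3 lower after centring). The neutrophil oxidase subunit Ncf4 had signals of 11.2 and 552 (at least 5.52-fold higher), and the integrin beta 2 gene Itgb2 signals of 32.1 and 739.7 (at least 7.40-fold higher). Mrc1, a scavenger receptor of macrophages and sinus endothelium, had 2011, 1593, 3503 and 25.0 in populations 1 to 4, and Alox5ap, needed for leukotriene synthesis, peaked in population 3 with 780.0, 984, 4454 and 1090.3.

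Blood transcription factors held 14 higher and 2 lower genes (4 lower after centring) of 32 measured. Klf1, which drives late erythroid genes, had 6.08, 34.8, 25.6 and 2538 in populations 1 to 4, Nfe2 1.67, 42.4, 277 and 2373 and Myb 2.08, 31.1, 174 and 1302. Others were shared between the ends. Lmo2, a bridging protein of the Tal1 complex, had signals of 2052 and 3363 (within 2-fold), the homeobox gene Hhex signals of 1551 and 2590.3 (within 2-fold) and Gata2 signals of 530.3 and 330.1 (within 2-fold), all within 2-fold. Mecom, a zinc finger gene linked to stem cells and to arterial endothelium, was at least 45.0-fold lower with signals of 4503 and 24.3 (at least 45.0-fold lower). Endothelial transcription factors had 24 of 33 measured genes lower and 0 higher, with a median log2 ratio of -2.18. The Notch effector Hey1 had signals of 5319.7 and 166 (32.0-fold lower), the SoxF gene Sox17 signals of 2770.2 and 14.7 (at least 27.7-fold lower) and the inhibitor Id3 signals of 3142 and 55.1 (at least 31.4-fold lower). Epas1 had signals of 6299 and 104 (60.3-fold lower), with -1.29 (log2) by its other probe set. Of 28 Hox genes and partners on the array 9 were measured, 0 of them higher and 3 lower (5 after centring). Hoxb3 had signals of 283 and 12.1 (at least 2.83-fold lower) and the cofactor Meis2 signals of 512 and 45.4 (at least 5.12-fold lower), while Pbx3 had signals of 916 and 1025 (within 2-fold).

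Cell division genes were the most uniform group. All 29 measured genes of mitosis and the kinetochore passed 2-fold upwards, on the deposited scale and after centring, with log2 ratios from 1.38 to 3.65 and a median of 2.51. The summed signal of the list was 14119 in population 1 and 71639 in population 4. Aurora B kinase (Aurkb) had 111, 485, 516 and 1402 in populations 1 to 4, cyclin A2 (Ccna2) 419, 1534, 1378 and 3187, the checkpoint gene Mad2l1 449.6, 1472, 1128 and 3354 and the proliferation antigen Mki67 836, 2239.6, 2208 and 5854. These genes were already higher in populations 2 and 3. In population 2, 27 of the 29 were at least 2-fold above population 1, against 2.91% of all measured genes, and the list median (log2, against population 1) was 1.51 there and 1.37 in population 3. Aurora A (Aurka) had signals of 304 and 2938 (9.66-fold higher), with 0.15 (log2) by its other probe set.

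DNA replication matched this, with 35 of 36 genes at least 2-fold higher, or 33 after centring, and a median log2 ratio of 2.07. The helicase gene Mcm4 had signals of 1083 and 5372 (4.96-fold higher), the primase Prim1 signals of 251 and 2118 (8.43-fold higher), the loader Cdc6 signals of 245 and 1885 (7.69-fold higher) and thymidine kinase (Tk1) signals of 81.6 and 1110.2 (at least 11.1-fold higher). Gins3, the member within 2-fold, had signals of 38.2 and 155 (at least 1.55-fold higher). Here 14 of 36 were at least 2-fold above population 1 in population 2, where the median log2 ratio was 0.93. In population 3 it was 17 of 36, against 2.91% and 5.38% of all measured genes in populations 2 and 3. By contrast, the haem list had a median of 0.19 in population 2 and 0.49 in population 3, and the red cell membrane list 0.00 in both. The median of all measured genes was 0 in population 2 and 0.29 in population 3. In the red cell membrane list, 13 of 20 genes on the array were at or below 100 in population 1. A gene that stays there has a ratio of 0.00 by the floor. Mitosis genes were thus mostly 2-fold higher in each Runx1-positive population and replication genes in part, while haem and red cell membrane genes were so mainly in population 4.

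**Figure D3:**
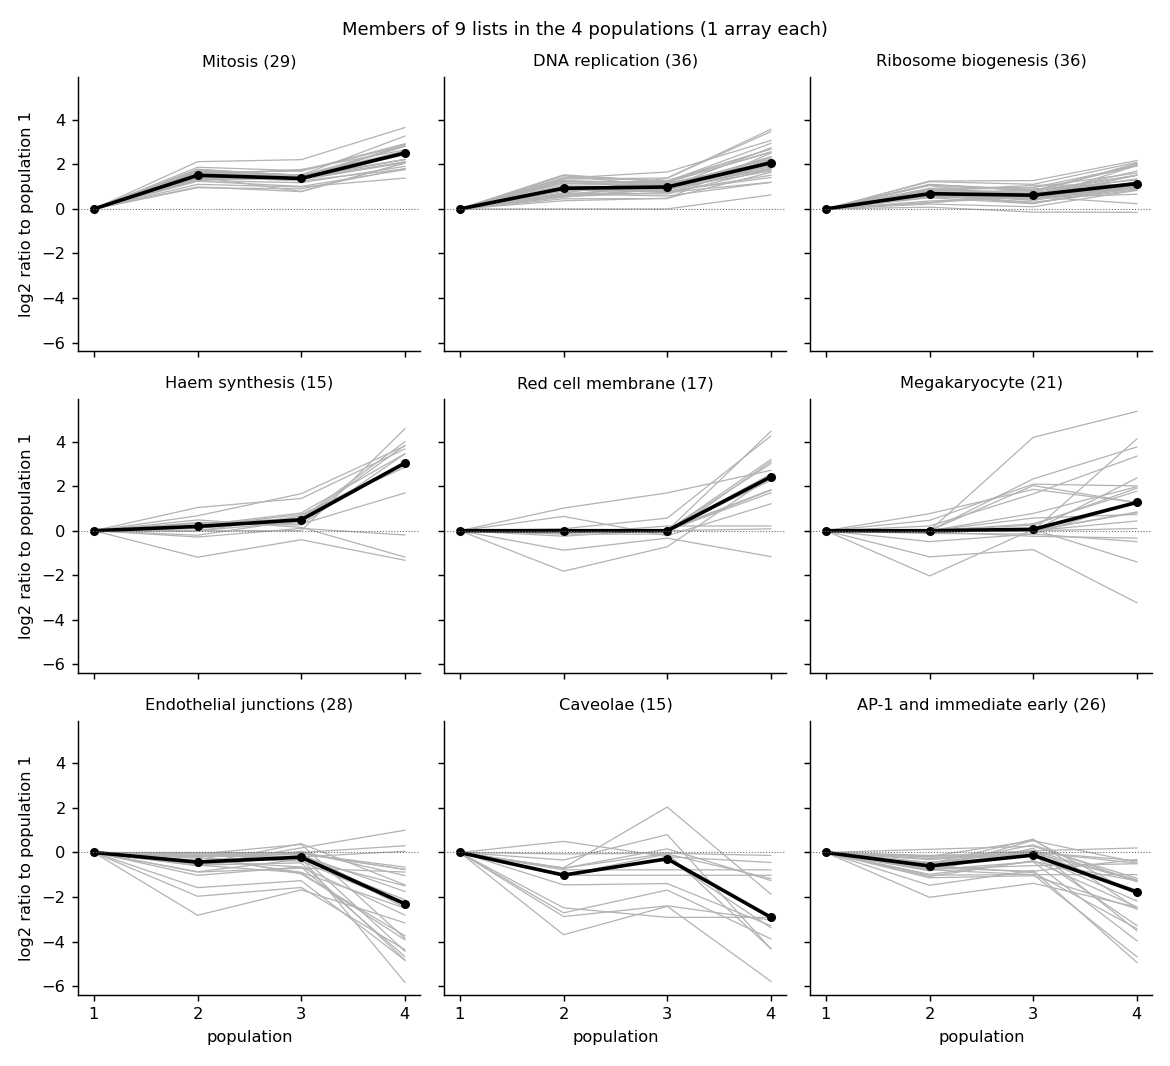
Log2 ratio to population 1 (y axis, signals raised to 100) in populations 1 to 4 (x axis) for measured members of 9 lists (grey lines, number in brackets) with their median (black), 1 array each. Mitosis reaches a median of 1.51 in population 2 and 2.51 in population 4, whereas haem synthesis stays at 0.19 and 0.49 before reaching 3.04. Junction genes have medians of -0.43 and -0.21 in populations 2 and 3, against 0 and 0.29 for all measured genes.

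Mitotic promoters are shown for TTTGAA, the core of the cell cycle homology region that represses such genes outside division. The motif was added after the values were seen, and the 6 genes are those with a match that had the largest ratios. Windows again hold 30 bases of the RefSeq promoter, GRCm38.p6, on the strand of the gene, with the match on either strand in capitals.
Aurka, chr2:172370521-172370550, - strand: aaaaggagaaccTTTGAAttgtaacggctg
Kif11, chr19:37376351-37376380, + strand: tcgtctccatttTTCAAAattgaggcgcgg
Cenpf, chr1:189688067-189688096, - strand: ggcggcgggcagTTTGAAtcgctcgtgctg
Mki67, chr7:135716460-135716489, - strand: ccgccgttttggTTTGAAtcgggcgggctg
Kif2c, chr4:117178858-117178887, - strand: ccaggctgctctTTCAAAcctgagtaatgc
Top2a, chr11:99024195-99024224, - strand: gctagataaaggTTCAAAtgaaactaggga
A match was present in 18 of 24 mitosis promoters (75.0%), against 11.5% of 6030 measured genes and 18.5% of all promoters. The letters CCAAT, the box bound by NF-Y, were present in 17 of the 24 (70.8%), against 39.8% and 38.2%, and 15 held both, against 4.94% of measured genes. Replication promoters had TTTGAA in 3 of 27 and CCAAT in 18 of 27. Among all genes at least 4-fold higher in population 4, 24.6% held TTTGAA and 51.8% CCAAT, and among those 4-fold lower 8.78% and 37.2%. The 4-fold higher set includes 24 of the 29 measured mitosis genes, and its shares without them were not counted. Here too the counts are of letters and not sites.

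Of 25 measured genes that set the entry into the cycle, 10 were higher and 4 lower, against 22.9% and 13.2% of all genes. Cyclin E2 (Ccne2) had signals of 115 and 967 (8.44-fold higher) and the E2F factors E2f8 and E2f2 had signals of 135 and 1559 (11.6-fold higher) and signals of 45.2 and 540.1 (at least 5.40-fold higher). The inhibitors Cdkn1c (p57) and Cdkn1a (p21), which hold cells in G1, had signals of 3451 and 188 (18.3-fold lower) and signals of 2497 and 639.8 (3.90-fold lower). Cyclin D1 (Ccnd1) and its kinase Cdk6 were lower too, with signals of 1582 and 212 (7.47-fold lower) and signals of 442 and 154 (2.87-fold lower), while Cdk4 had signals of 2499 and 3439 (within 2-fold). Cyclin D3 (Ccnd3) had signals of 922 and 4095 (4.44-fold higher), so that D cyclins differed among themselves. Among cell death genes 3 of 20 were higher and 3 lower, among them the activator Bcl2l11 (Bim) with signals of 2905 and 379 (7.67-fold lower), the protector Bcl2 with signals of 349 and 56.2 (at least 3.49-fold lower) and Bid with signals of 155 and 614 (3.95-fold higher). Of 15 p53 target genes, 2 were higher and 3 lower.

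Supply pathways of growing cells followed the division genes to a smaller extent. Purine and pyrimidine synthesis had 17 of 23 genes higher and 1 lower, with a median log2 ratio of 1.60 and, in population 2, of 0.93. Adenosine kinase (Adk) had signals of 1007 and 6191 (6.15-fold higher), Umps, the last enzyme of uridine synthesis, signals of 119 and 640.0 (5.36-fold higher), and Impdh1 signals of 286 and 129 (2.21-fold lower). Ribosome biogenesis had 26 of 36 genes higher and 0 lower, but 14 after centring, with a median of 1.14. Wdr12, a factor of the large subunit, had signals of 278 and 1253 (4.51-fold higher), dyskerin (Dkc1) signals of 1183 and 5039 (4.26-fold higher), and nucleophosmin (Npm1) signals of 15008 and 13476 (within 2-fold). Sterol and fatty acid synthesis had 12 of 26 higher and 0 lower, or 5 higher after centring, led by Idi1 with signals of 1326 and 5095 (3.84-fold higher).

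Other housekeeping lists lay close to the shift of all genes. The respiratory chain had 11 of 43 genes higher (6 after centring) and 0 lower. The proteasome had 6 of 29 higher (2 after centring) and splicing factors 5 of 35 (1 after centring). Of all genes, 22.9% were higher, and 1375 of 9284 after centring. The chaperone Hspa8 had signals of 17544 and 14963 (within 2-fold) and the respiratory subunit Uqcrb signals of 10299.5 and 13929.8 (within 2-fold). Among 26 chaperones 7 were higher and 1 lower, the latter being the small heat shock gene Hspb1 with signals of 531 and 141 (3.77-fold lower). Glycolysis had 4 of 20 higher (1 after centring) and 1 lower. Its regulator Pfkfb4 had 70.9, 133, 193 and 2002 in populations 1 to 4, while Gapdh had signals of 11903 and 12137 (within 2-fold). Transcripts of the maintenance DNA methylation genes were higher, with Uhrf1 at signals of 979 and 4346 (4.44-fold higher) and Dnmt1 at signals of 794 and 2935 (3.70-fold higher). Of 9 measured genes of the list 4 were higher (2 after centring). Methylation itself was not measured. Polycomb and trithorax genes had 2 of 21 higher (1 after centring) and 2 lower, and of 20 corepressor genes 3 were higher and 1 lower. Hdac7, a class IIa deacetylase of endothelium, had signals of 1090.0 and 100.4 (10.9-fold lower), while Kdm1a (LSD1) had signals of 1757 and 2301 (within 2-fold).

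On the endothelial side, most junction genes were lower in population 4. Of 28 measured junction genes 21 were at least 2-fold lower, against 13.2% of all genes, and 1 was higher (0 after centring), with a median log2 ratio of -2.31. The adhesion molecules Mcam and Icam2 had signals of 2862 and 18.0 (at least 28.6-fold lower) and signals of 2836 and 49.3 (at least 28.4-fold lower), angiomotin-like 1 (Amotl1) signals of 2546 and 80.4 (at least 25.5-fold lower) and endothelial selective adhesion molecule (Esam) signals of 4341 and 202 (21.5-fold lower). Beta-catenin (Ctnnb1), which serves junctions and Wnt signals in many cells, had signals of 10723 and 6319 (within 2-fold), but its other measured probe sets gave -1.62 to -1.29 (log2). In population 3, which still carries VE-cadherin, 3 of the 28 were at least 2-fold below population 1, against 2.35% of all measured genes. From population 3 to population 4, 21 differed by 2-fold or more downwards, against 12.4% of all measured genes.

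VEGF and Tie signalling had 14 of 18 measured genes lower and 0 higher, with a median log2 ratio of -3.23. The receptors Flt1, Flt4 and Tek had signals of 2784 and 173 (16.1-fold lower), signals of 1653 and 93.2 (at least 16.5-fold lower) and signals of 2446 and 254 (9.63-fold lower), and the co-receptor Nrp1 had signals of 4256 and 166 (25.6-fold lower). Of the ligands, Vegfc had 5059, 2799, 2919.7 and 137 in populations 1 to 4 and Vegfa 538, 746, 729 and 166, while Vegfb had 489, 765, 658 and 825 and lay within 2-fold. The Notch pathway had 11 of 19 lower and 0 higher, with the endothelial receptor Notch4 at signals of 2317 and 16.5 (at least 23.2-fold lower) and the receptor protease Adam10 at signals of 3835 and 3909 (within 2-fold). Guidance genes had 18 of 31 lower and 2 higher (1 after centring). Ephrin ligands Efna1 and Efnb2 had signals of 4934 and 42.6 (at least 49.3-fold lower) and signals of 6961 and 329 (21.2-fold lower), and the semaphorin receptor Plxnd1 had signals of 5859 and 441 (13.3-fold lower). Sema6d had signals of 3105 and 54.3 (at least 31.1-fold lower), with -0.26 (log2) by its other probe set. The 2 higher were Reln and the lymphocyte semaphorin Sema4d, with signals of 50.1 and 4116 (at least 41.2-fold higher) and signals of 53.3 and 202 (at least 2.02-fold higher).

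Caveolae and uptake had 12 of 15 genes lower and 0 higher, with a median log2 ratio of -2.91. Cav1, the caveolin of the membrane pits, had 5513, 427, 1033 and 64.7 in populations 1 to 4 and Cav2 1471, 225, 457 and 21.0, and 8 of 15 genes were at least 2-fold below population 1 in population 2, against 4 of 28 junction genes and 4.28% of all measured genes. In population 3 it was 6 of 15, against 3 of 28 junction genes and 2.35% of all measured genes. The median log2 ratios there were -0.28 for caveolae and -0.21 for junction genes, against 0.29 for all measured genes. The gap between the lists was thus still seen in the counts of population 3, but little in its medians. The cavin Cavin1, their coat partner, had 3482, 2137, 3390.3 and 174 and followed the later course. Clathrin heavy chain (Cltc) had signals of 5844 and 5332 (within 2-fold).

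The basement membrane had 19 of 25 genes lower and 0 higher, with a summed signal of 74222 in population 1 and 11016 in population 4. The collagen IV chain Col4a1 had signals of 10596 and 188 (56.2-fold lower). Laminin alpha 4 (Lama4) had signals of 2969 and 26.9 (at least 29.7-fold lower), and Sparcl1, a matrix glycoprotein, had 3032, 254, 493 and 0.945 in populations 1 to 4. Fibronectin (Fn1) had signals of 8134 and 5118 (within 2-fold), but its other measured probe set gave -1.71 (log2). Matrix proteases and inhibitors had 16 of 18 lower and 0 higher, among them the gelatinase Mmp2 with signals of 1013 and 51.2 (at least 10.1-fold lower), Adamts1 with signals of 1654 and 142 (11.7-fold lower) and the membrane protease Adam19 with signals of 1541 and 50.6 (at least 15.4-fold lower). Coagulation regulators and surface sialomucins had 12 of 18 lower and 2 higher. Cd34 had 2950.1, 1367, 2974 and 257 in populations 1 to 4 and thus was as high in population 3 as in population 1, endomucin (Emcn) had 2498, 258, 571 and 7.28, and podocalyxin (Podxl) had signals of 1592 and 1364 (within 2-fold).

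A list of vasoactive and endothelial genes, G protein-coupled receptors with enzymes, co-receptors and transporters of the same signals, had 19 of 31 lower and 4 higher. The apelin receptor Aplnr had signals of 3129 and 58.8 (at least 31.3-fold lower), the adrenomedullin co-receptor Ramp2 signals of 3455 and 48.8 (at least 34.5-fold lower) and the adhesion receptor Adgrl4 signals of 1960.2 and 37.5 (at least 19.6-fold lower). In the other direction, the nitric oxide receptor subunit Gucy1a1 had signals of 5.16 and 970.3 (at least 9.70-fold higher), the adhesion receptor Adgrg1 signals of 26.3 and 554 (at least 5.54-fold higher) and the sphingosine 1-phosphate exporter Spns2 signals of 844 and 1942 (2.30-fold higher). Gucy1a1 differed by 0.47 to 0.56 (log2) by its other probe sets.

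Cell shape genes differed in kind. Integrin chains had 5 of 13 measured genes higher and 7 lower. The laminin receptor chain Itga6 had signals of 3578 and 404 (8.87-fold lower) and the collagen receptor chain Itga1 signals of 597 and 1.90 (at least 5.97-fold lower), whereas Itga4, which binds fibronectin and Vcam1, had signals of 91.8 and 439 (at least 4.39-fold higher) and Itga8 signals of 188 and 688 (3.67-fold higher). Focal adhesion and contractile genes had 16 of 36 lower and 1 higher, the latter being Fermt3. Parva, a partner of integrin-linked kinase, had signals of 491 and 16.3 (at least 4.91-fold lower), and the tropomyosin Tpm3 had signals of 6668 and 5591 (within 2-fold). Tubulins and microtubule proteins had 12 of 20 lower and 5 higher. Tuba4a had 88.0, 84.3, 192 and 2977 in populations 1 to 4 and Tubb4b 1196, 2489, 2720.3 and 5657, while Tuba1a, Tubb2a and Tubb6 had signals of 8508 and 3759 (2.26-fold lower), signals of 792 and 319 (2.48-fold lower) and signals of 1559 and 427 (3.65-fold lower), and Tubb5 had signals of 7098 and 7485 (within 2-fold). Tubulin signals can be shared between near-identical genes, and Tuba1a and Tubb2a were read by such shared probe sets. Of the transcription factors and partners of the mesenchymal transition, 7 were measured and 3 were lower, with N-cadherin (Cdh2) at signals of 2583 and 193 (13.4-fold lower) and vimentin (Vim) at signals of 16083 and 5222 (3.08-fold lower).

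Growth factor pathways were lower in part. The BMP and TGF-beta pathway had 13 of 32 lower and 1 higher. The receptor Tgfbr2 had signals of 3243 and 125 (26.0-fold lower) and the BMP effector Smad1 signals of 2988 and 300.1 (9.96-fold lower), while the shared Smad4 had signals of 3363 and 1989 (within 2-fold) and the ligand Bmp2 was highest in population 3, with 602, 1953, 4141 and 1802 in populations 1 to 4. The Wnt pathway had 6 of 22 lower and 3 higher (7 and 0 after centring), with Tcf7l1 at signals of 966 and 46.0 (at least 9.66-fold lower). The insulin-like growth factor system had 9 of 14 lower and 1 higher. Its binding proteins Igfbp4 and Igfbp5 had signals of 6914 and 553 (12.5-fold lower) and signals of 1073 and 69.3 (at least 10.7-fold lower), and the receptor substrate Irs2 had signals of 125 and 1007 (8.09-fold higher).

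Immediate early genes formed a group of their own, with 19 of 26 lower and 0 higher and a median log2 ratio of -1.77. The AP-1 gene Fosl2 had 1558, 908, 1166 and 99.4 in populations 1 to 4, and the secreted matrix genes Ccn1 and Ccn2, which respond to stretch and flow, had 2563, 1266, 1292 and 99.7 and 3059, 1103, 1749 and 39.5. Klf4, a flow-responsive factor in endothelium, had 3184, 1797, 3625 and 279.7. In population 3 the list had a median log2 ratio to population 1 of -0.12, against 0.29 for all measured genes. From there to population 4, 18 genes differed by 2-fold or more downwards, against 12.4% of all measured genes. Of Foxo factors and stress kinases 9 of 16 were lower and 2 higher (1 after centring), with Sgk1 at signals of 4194 and 375 (11.2-fold lower) and Gadd45b at signals of 832 and 120.1 (6.93-fold lower). Hypoxia genes had 3 of 18 lower and 2 higher (5 and 1 after centring), and interferon and MHC genes 5 of 14 lower and 0 higher, including Ifitm3 with signals of 1872 and 482 (3.88-fold lower) and B2m with signals of 4563 and 2049.6 (2.23-fold lower).

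Transport and membrane lists differed little as groups but held single large differences. Zinc exporter Slc30a1 had signals of 146 and 832 (5.71-fold higher) and metallothionein 1 (Mt1) signals of 321 and 1197 (3.73-fold higher), both higher, in a list with 5 of 24 higher and 1 lower (4 and 4 after centring). Among amino acid and nucleoside transporters, 3 of 20 were higher and 4 lower. Slc38a5, a glutamine carrier, had 0.570, 7.20, 1.62 and 678 in populations 1 to 4, and the taurine carrier Slc6a6 had signals of 2212 and 602 (3.67-fold lower). The cholesterol exporter Abca1 had signals of 2156 and 114 (18.9-fold lower) and the lipoprotein lipase anchor Gpihbp1 signals of 651 and 9.26 (at least 6.51-fold lower), both lower, in a lipid list with 5 of 22 lower and 1 higher. The potassium channel Kcnn4, the Gardos channel of red cells, had signals of 6.41 and 1386 (at least 13.9-fold higher), while connexin 43 (Gja1) and connexin 37 (Gja4) had signals of 4672 and 209.8 (22.3-fold lower) and signals of 1229 and 223 (5.51-fold lower). Sugar-modifying enzymes had 8 of 34 in each direction (7 higher and 11 lower after centring), with Gcnt1 at signals of 98.1 and 969.6 (at least 9.70-fold higher) and Chst1 at signals of 1139 and 99.4 (at least 11.4-fold lower). Lysosome and autophagy genes had 3 of 29 lower and 0 higher (7 lower after centring), with cathepsin L (Ctsl) at signals of 9039 and 3697 (2.44-fold lower).

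In several families a member higher in population 4 stood beside a relative that was lower. These 9 pairs were chosen after their values were seen and are a description. Kindlin 3 (Fermt3), the integrin activator of blood cells, had 734, 4355, 6684 and 9654 in populations 1 to 4, and kindlin 2 (Fermt2), that of adherent cells, 3709, 2777, 3073 and 238. Kindlin 3 was thus raised from population 2 on, while kindlin 2 stayed near its population 1 signal until population 3. The other measured probe sets of Fermt2 gave -3.61 to -0.03 (log2) at the blood end. For the splicing regulators of the muscleblind family, Mbnl1 had signals of 1634 and 5619.6 (3.44-fold higher) and Mbnl2 signals of 2521 and 994 (2.54-fold lower). Foxo4 had signals of 101 and 435 (4.29-fold higher) and Foxo1 signals of 931 and 196 (4.75-fold lower). The histone methyltransferase Ezh2 had signals of 804 and 1742 (2.17-fold higher) and its slower relative Ezh1 signals of 265 and 126 (2.11-fold lower). The glycolytic regulator Pfkfb3 had signals of 249 and 28.6 (at least 2.49-fold lower), opposite to Pfkfb4. Levels of different probe sets are not comparable in amount, so the pairs are read by their ratios between populations.

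**Figure D4:**
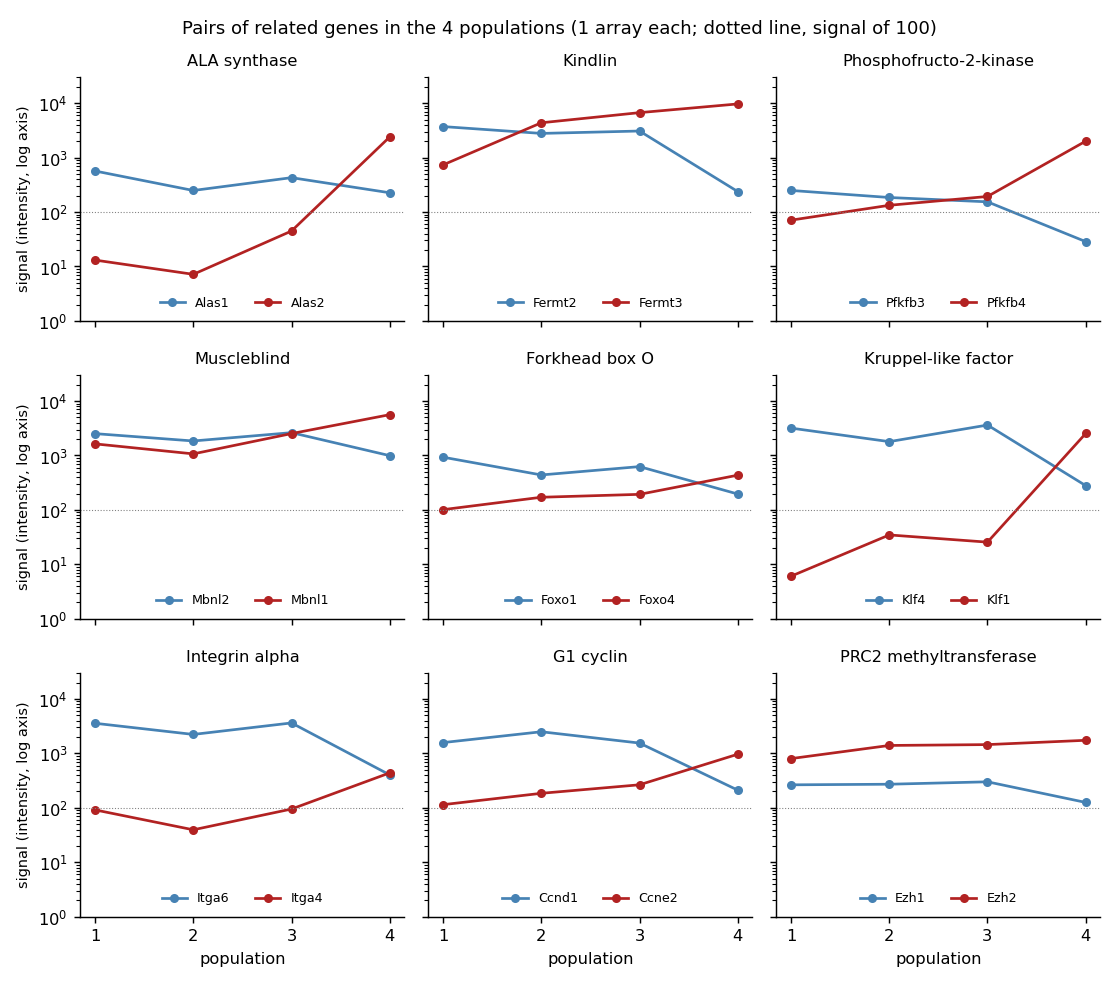
Signal (intensity, log axis) in populations 1 to 4 of 9 pairs of related genes, 1 array each, with the member lower in population 4 than in population 1 in blue and the higher one in red, and a dotted line at 100. In all 9 pairs the larger part of the contrast on the log2 scale lay between populations 3 and 4.

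Outside the lists, a 4-fold difference was reached upwards by 281 and downwards by 349 of 8095 measured genes. The highest ratios among them were those of Tspan32, a tetraspanin of blood cells, with signals of 5.99 and 2731 (at least 27.3-fold higher), Mllt3, a cofactor of transcript elongation, with 81.5, 103, 119.9 and 2368 in populations 1 to 4, and protein kinase C alpha (Prkca) with 57.5, 151, 631 and 2283. The elongation factor gene Ell2 had 206, 121, 303 and 4658 and Hemgn, an erythroid nuclear protein, 0.297, 0.949, 11.9 and 1296. The remaining 10 higher genes were Mgst3, Rgs10, Tnfaip8, Lrr1, Ufsp1, Fam117a, Cenpp, Tspoap1, Uba7 and Ank3, between at least 11.8-fold and 18.4-fold higher.

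At the lower end stood Ecscr, an endothelial surface protein, with signals of 5574 and 65.0 (at least 55.7-fold lower), Mmrn2, an endothelial matrix protein, with signals of 4702 and 22.3 (at least 47.0-fold lower), and Klhl4 with signals of 4695 and 4.60 (at least 46.9-fold lower). The kinase Plk2 had signals of 4502 and 106 (42.6-fold lower). Plagl1, an imprinted zinc finger gene, had signals of 10783 and 302 (35.7-fold lower), with -1.12 to -0.59 (log2) by its other probe sets. Kit ligand (Kitl), the partner of the receptor Kit, had 3117, 772, 704 and 87.1 in populations 1 to 4, and Esm1, a tip cell proteoglycan, 2748, 305, 698 and 3.06. Kitl and Esm1 were thus lower from population 2 on. The remaining 8 lower genes were Tmem255a, Ptprm, Tmem204, Gng11, Akap12, Fam43a, She and Rell1, between 22.1-fold and at least 43.1-fold lower.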

How the data were processed

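The authors deposited linear intensity values per probe set, with 1 array for each of 4 sorted populations. Per the labels, RNA was extracted with a column kit and labelled with biotin. The processing notes name MAS5 and GCOS 1.3. How arrays were scaled, and detection calls, are not given in the sources used here, and 0 columns belong to other samples. The embryo, Agilent and ChIP-Seq data were not used here.

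Of 45101 probe sets, 34958 had 1 gene symbol in the platform annotation, looked up by gene ID in RefSeq records of GRCm38.p6 (names only, 0 symbols changed), 932 had several and 9211 none. The brightest probe set by mean log2 stood for its gene. Among 6541 pairs of probe sets for one gene, log2 ratios differed by a median of 0.28, which is the limit used for a moved list median. It holds no variation between sorts, cultures or arrays and is no replicate error. Genes above 100 in population 1 or 4 were kept, signals were floored at 100, and genes are counted at 2-fold and 4-fold, without a test.

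Members and lists were chosen with earlier results of these data known. From each list up to 4 genes with the largest ratio in each direction (2-fold or more, 200 or more in the higher array) and 1 gene within 2-fold could be named, with all defining markers and, outside the lists, the 15 largest in each direction (400 or more). Other genes named, the 9 pairs, the genes with printed promoters and the motifs TTTGAA and CCAAT were chosen after their values were seen. Of 320 named genes with a 2-fold difference, 163 had another measured probe set, and 55 of these had one within 2-fold and 0 one at 2-fold the other way. Not all of the 55 are marked where the gene is named. Unmarked ones include, by another probe set (log2), Vegfa at -0.09, Meis2 at -0.30, Efnb2 at -0.43, Bcl2 at -0.44 and Gja1 at -0.72. Others are Tubb4b at 0.34, Prkca at 0.59, Tspan32 at 0.78 and Kitl at -0.91. Of 54 named genes within 2-fold, 37 had another measured probe set, and 6 of these had one at 2-fold or more. One further list is not reported here. Of 1614 listed symbols 99 were not matched to a probe set with 1 symbol and are not analysed here.

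Motifs were searched on both strands of RefSeq promoters of genes with 1 promoter in the reference table. Python 3.11.15, pandas 2.3.3, numpy 2.4.6 and matplotlib 3.10.9 were used, and the steps were tested on simulated data. The 10 alternatives were 4 scalings (array median, quantile, hybridisation controls, poly-A controls), the mean over probe sets, leaving out shared probe sets, floors of 50 and 200, a minimum of 200, and genes above 100 in any of the 4 arrays.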

Additional observations from a re-analysis of the deposited data

How the results depend on the processing

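No paired analysis was possible because each population has 1 array. The number of genes at least 2-fold higher in population 4, 2123 as reported, was 1375 after centring on the array median and 3312 when scaled on the hybridisation controls. That of genes at least 4-fold higher, 424 as reported, was 650 on the hybridisation controls, 280 with the mean over probe sets and 261 with a floor of 200. With the mean over probe sets, 802 genes were at least 2-fold lower and 353 at least 4-fold lower. The place of populations 2 and 3, and the motif shares among promoters of the 4-fold sets and of the haem, red cell membrane, mitosis and replication lists, stayed within 1.5 times of their values under all 10 alternatives. A share of 70.3% or more could not pass that limit upwards, and motif shares of lists change only with the members measured. Of genes 4-fold higher, 80.7% (population 2) and 70.3% (population 3) lay nearer to population 1. After centring these shares were 74.0% and 83.9%, so their order turned with the scaling.

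For 57 lists with at least 5 measured genes the median log2 ratio was set against that of all genes. The 28 lists that lay 1 or more away kept their sign in all 280 values. Scalings by 1 factor per array (array median, hybridisation and poly-A controls) move a list and all genes alike, apart from the floor. Those values therefore hardly test the sign. Of 568 values over all lists 79 moved by more than 0.28. Changes of sign were not counted for lists that lay nearer than 1. With the mean over probe sets the distances were 2.11 for haem, 1.43 for red cell membrane, 1.81 for mitosis, -2.68 for VEGF and Tie, -1.73 for caveolae, -3.00 for basement membrane and -1.94 for matrix proteases. A floor of 50 gave 2.37 for red cell membrane, -3.83 for caveolae, -2.62 for basement membrane, -3.20 for matrix proteases and -4.40 for endothelial markers. A floor of 200 gave 1.26 for red cell membrane, -1.78 for endothelial transcription factors, -2.37 for junctions, -2.80 for VEGF and Tie, -2.07 for caveolae, -1.76 for basement membrane, -1.83 for matrix proteases and -3.20 for endothelial markers. A minimum of 200 gave -3.90 for VEGF and Tie and -3.30 for basement membrane. Caveolae gave -2.92 on the hybridisation controls and -2.75 with genes above 100 in any array, and haem 3.06 without shared probe sets. The cause of these shifts was not tested.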
